A study of Mus musculus with 8 samples.

Results

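The cardiac thick filament was followed through 10 genes, *Myh6*, *Myh7*, *Myl2*, *Myl3*, *Myl4*, *Myl7*, *Mybpc3*, *Ttn*, *Myom1* and *Myom2*, which were taken by symbol from the 55487 genes of the count and TPM files. Each symbol matched 1 gene, and all 10 members passed the filter on low counts that 20071 of the 55487 genes passed. RNA of the J1 mouse ESC line, of the strain 129S4/SvJae, was sequenced at 4 stages of cardiac differentiation, with 2 biological replicates per stage and thus 8 libraries. The stages were undifferentiated ESC (day 0, untreated, kept with LIF), mesoderm (MES, day 4), cardiac progenitor (CP, day 6) and cardiomyocyte (CM, day 10), and the cells of days 4, 6 and 10 received ascorbic acid in the differentiation medium. All stages come from 1 cell line. The differentiating cells were embryoid bodies, aggregates of cells that were formed in hanging drops for 2 days and then plated on gelatin, so the stage, the medium and the form of culture cannot be told apart in any comparison with ESC. Each library is a mixture of cell types, in which fewer cells of a type and less RNA per cell cannot be told apart.

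The thick filament is the myosin-containing filament of the sarcomere, the contractile unit of striated muscle. Its myosin molecules pair heavy chains, which carry the motor, with essential and regulatory light chains, while myosin-binding protein C sits along the filament, titin spans from the Z-disc to the M-band, and myomesins crosslink the filaments at the M-band. The heart exchanges isoforms with age and chamber. In the mouse, *Myh7* (β-myosin heavy chain) leads in the fetal ventricle and *Myh6* (α-myosin heavy chain) in the atria and in the adult ventricle. *Myl7* and *Myl4* are the atrial regulatory and essential light chains and are also made in the early heart tube, and *Myl2* and *Myl3* are their ventricular counterparts.

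Libraries held 18046063 to 19728777 counts each. Replicates of ESC, MES and CP differed by a mean chi-square per gene of 3.71 to 6.40 and those of CM by 33.2, so the CM libraries stood further apart and each CM replicate is given by itself. Of 10 cardiomyocyte markers outside the thick filament, 9 were higher in CM than in ESC. *Pln* of this list passed the filter on low counts only with the CM libraries (114 and 144 counts), which set its direction. Of 12 smooth muscle and fibroblast markers, 12 were also higher in CM than in ESC, and their summed TPM was 16604 and 10605 in the CM libraries, against 670 and 1072 for the 10 cardiomyocyte markers. The CM libraries thus carried markers of both kinds of cells. All 6 pluripotency markers were lower in CM than in ESC. Over all genes tested, 29.8% were called higher and 21.8% lower in CM than in ESC.

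Of the 10 members, 9 stepped up between MES and CP, and 0 were called higher in CM than in CP, against 10.8% and 8.17% of all genes. TPM is a level scaled to gene length and library, and the TPM of all members together came to 25.9 and 26.9 at ESC, 40.3 and 54.6 at MES, 738 and 1172 at CP and 353 and 935 at CM. The lower CM library was below both CP libraries and the higher CM library lay between them. As a share of all counts, the members took 0.0570% and 0.0567% at ESC, 0.00345% and 0.00504% at MES, 0.216% and 0.297% at CP and 0.0929% and 0.192% at CM. By counts MES was thus the lowest stage and by TPM ESC was. *Ttn*, the longest member, alone held 0.00121% and 0.00213% of the counts in MES, against 0.0559% and 0.0556% in ESC.

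**Figure D1:**
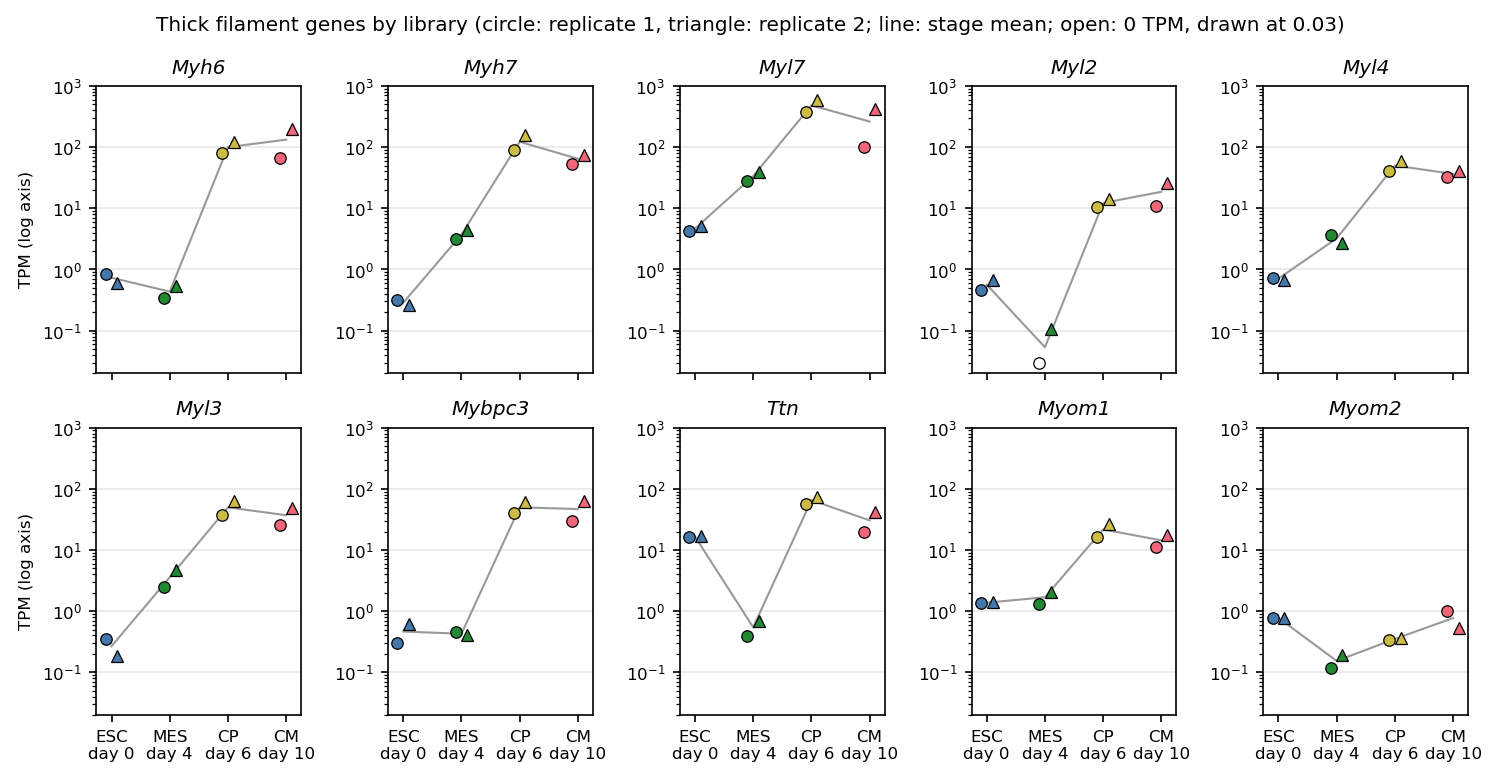
TPM of the 10 thick filament genes on a log axis in ESC, MES, CP and CM, with a circle for replicate 1, a triangle for replicate 2, a line through the stage means and an open symbol for the library at 0 TPM. Of the genes drawn, 9 step up from MES to CP and *Myom2* stays at or below 1.01 TPM, and in CM the triangle of *Myl7* (422 TPM) stands far above its circle (102 TPM).

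The heavy chain genes lie side by side on the minus strand of chromosome 14 of GRCm38, *Myh6* at chr14:54941921-54966927 and *Myh7* at chr14:54970684-54994626, and their messages are near copies. Over 6062 aligned bases the principal transcripts of the GENCODE M21 annotation were 90.4% identical. The longest identical run was 245 bases, at positions 4482 to 4726 of *Myh6* and 4636 to 4880 of *Myh7*. It is shown in lower case, as no base differs, because reads that fall inside it cannot be given to either gene.
Myh6 and Myh7: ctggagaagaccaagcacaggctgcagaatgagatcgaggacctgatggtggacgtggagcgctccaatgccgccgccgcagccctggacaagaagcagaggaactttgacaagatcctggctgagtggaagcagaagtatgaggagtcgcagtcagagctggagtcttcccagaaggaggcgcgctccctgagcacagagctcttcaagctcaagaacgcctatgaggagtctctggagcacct
Of all windows of 50 bases in the transcript, 22.6% of those of *Myh6* and 22.2% of those of *Myh7* were present in the other gene, and of windows of 150 bases 5.53% and 5.43% were. The counts of this pair are therefore uncertain where the counting could split or drop such reads, while the other 8 members shared no window of 50 bases with the muscle genes searched. The antisense RNA *Mhrt*, which overlaps *Myh7*, had at most 10 counts in any library, and counting was by strand. Protein-coding neighbours on the other strand overlap *Myl2* (*Ccdc63*), *Myl3* (*Pth1r*) and *Myom1* (*Myl12a*), and counting by strand keeps these apart. The lincRNA *Gm26561* spans *Myom1* on the same strand and has no entry among the genes counted. Its reads could not be told apart from those of *Myom1* where exons overlap.

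*Myh6* had 0.856 and 0.608 TPM in ESC, 0.343 and 0.527 TPM in MES, 80.5 and 119.7 TPM in CP and 66.7 and 198.7 TPM in CM. It was near the detection limit until day 4 (11 to 32 counts per library) and above 66 TPM in every CP and CM library, with the highest and the lowest of those 4 libraries both in CM. *Myh7* had 0.313 and 0.259 TPM in ESC, 3.11 and 4.35 TPM in MES, 88.3 and 156.8 TPM in CP and 53.4 and 75.6 TPM in CM. Its 4 stages did not overlap, and it was the heavy chain that was already present at day 4.

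The share of *Myh6* in the summed TPM of both genes describes which heavy chain led. It was 73.2% (95% interval 59.0 to 84.4) and 70.1% (52.7 to 83.9) in ESC, from only 47 and 34 reads, and 9.92% (5.09 to 16.9) and 10.8% (6.45 to 16.6) in MES. It was 47.7% (46.4 to 48.9) and 43.3% (42.3 to 44.3) in CP, and 55.5% (54.1 to 57.0) and 72.4% (71.5 to 73.3) in CM. These intervals are exact Clopper-Pearson intervals carried through the gene lengths, and intervals and floors here cover counting error only. By TPM, *Myh7* thus led in both MES and both CP libraries and *Myh6* in both CM libraries, but the CM libraries differed by more than their counting intervals. The mean share was 64.0% ± 12.0 in CM and 45.5% ± 3.09 in CP (SD, n = 2 each). With 2 libraries against 2 the smallest two-sided exact permutation p is 0.333, so the shares are given without a test. When the shares were taken from raw counts, *Myh6* took 49.4% and 67.2% in CM, so the lead of *Myh6* in CM replicate 1 rests on the length scaling. The lengths used are unions of all annotated exons, 6726 bases for *Myh6* and 8616 bases for *Myh7*. The principal transcripts are nearer in length, at 6113 and 6230 bases.

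The atrial regulatory light chain *Myl7* (chr11:5896637-5898782) had the highest TPM of the members in MES, CP and CM. It had 4.27 and 5.04 TPM in ESC, 28.4 and 38.8 TPM in MES, 369 and 597 TPM in CP and 102 and 422 TPM in CM. The CP libraries overlapped with CM replicate 2 and not with CM replicate 1. Its ventricular counterpart *Myl2* (chr5:122100951-122113472) had 0.461 and 0.667 TPM in ESC, 0 and 0.107 TPM in MES, 10.3 and 14.1 TPM in CP and 10.9 and 26.4 TPM in CM. In ESC and MES it rested on 0 to 7 counts per library, and in CM both libraries lay above CP replicate 1.

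Of the summed TPM of both regulatory light chains, *Myl7* held 90.2% (75.9 to 97.0) and 88.3% (74.6 to 95.6) in ESC and 100% (98.6 to 100) and 99.7% (98.5 to 100) in MES. It held 97.3% (96.7 to 97.8) and 97.7% (97.3 to 98.1) in CP and 90.4% (88.2 to 92.2) and 94.1% (93.3 to 94.9) in CM. The atrial form led in every library, and the CM shares lay below the CP shares without overlap of their counting intervals. The size of the lead depends on gene length. The length used for *Myl2* is the union of all its annotated exons, 1950 bases, against 662 bases for its principal transcript, while both lengths are 590 bases for *Myl7*. With principal lengths, an alternative chosen after seeing the data, *Myl7* held 80.3% on average in CM, and 78.4% by raw counts.

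The atrial essential light chain *Myl4* (chr11:104550663-104595753) had 0.737 and 0.682 TPM in ESC, 3.71 and 2.74 TPM in MES, 40.2 and 59.8 TPM in CP and 32.6 and 40.4 TPM in CM. Its ventricular counterpart *Myl3* (chr9:110741861-110769798) had 0.352 and 0.182 TPM in ESC, 2.46 and 4.69 TPM in MES, 37.3 and 62.1 TPM in CP and 26.0 and 48.0 TPM in CM. Unlike the regulatory pair, the essential light chains stood close to each other in TPM in CP and CM. *Myl4* held 67.7% (41.0 to 89.4) and 78.9% (47.1 to 97.1) of the pair in ESC and 60.1% (48.6 to 71.3) and 36.9% (28.2 to 46.7) in MES. It held 51.9% (48.8 to 55.0) and 49.1% (46.6 to 51.6) in CP and 55.6% (52.1 to 59.1) and 45.7% (42.8 to 48.7) in CM, so neither form led by TPM in all 4 of these libraries. This balance also depends on the lengths, since the union of exons of *Myl4* is 4637 bases, 5.15 times its principal transcript. With principal lengths *Myl4* held 70.6% in CM on average, and by raw counts 69.8%.

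**Figure D2:**
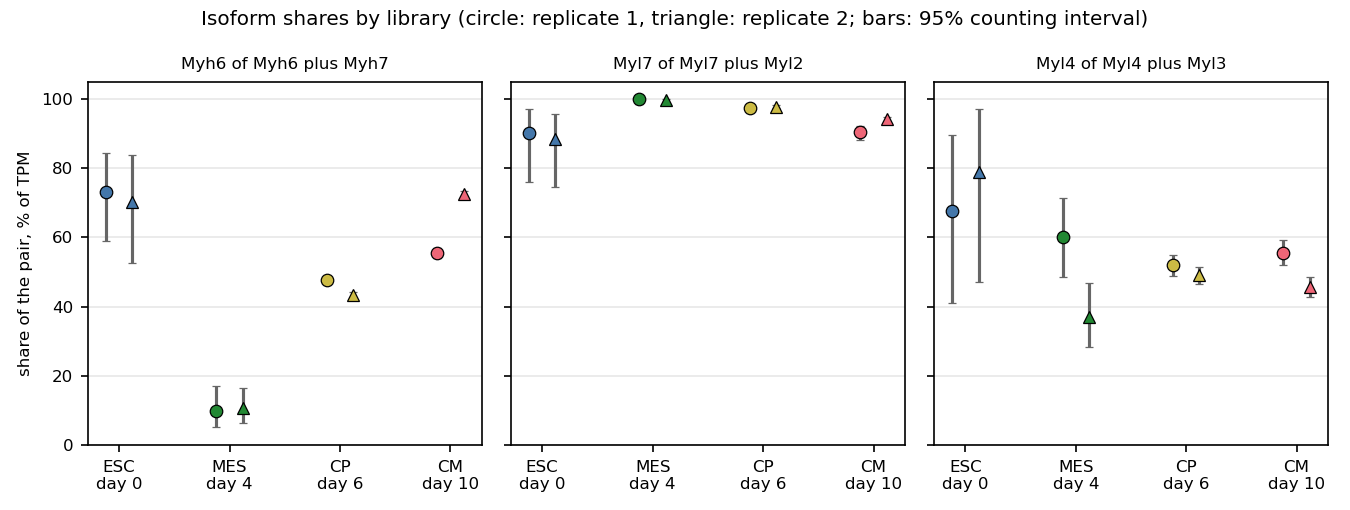
Share of *Myh6*, *Myl7* and *Myl4* in the summed TPM of their isoform pairs in each library of ESC, MES, CP and CM, with 95% counting intervals as bars. *Myh6* is near 10% at day 4, at 43.3% and 47.7% on day 6 and at 55.5% and 72.4% on day 10, *Myl7* exceeds 88% throughout, and *Myl4* is close to 50% in CP and CM.

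*Mybpc3* (chr2:91118144-91136516), the cardiac myosin-binding protein C, had 0.302 and 0.625 TPM in ESC, 0.453 and 0.400 TPM in MES, 39.8 and 60.0 TPM in CP and 29.5 and 63.7 TPM in CM. ESC and MES overlapped, as did CP and CM, so its course was a single step between day 4 and day 6. *Ttn* (chr2:76703980-76982547), which encodes the giant spring and ruler protein of the sarcomere, was the exception in ESC. It had 16.5 and 16.6 TPM in ESC, 0.389 and 0.696 TPM in MES, 55.7 and 74.8 TPM in CP and 19.3 and 41.6 TPM in CM. It had 218 and 392 counts in MES, against 10736 and 10505 counts in ESC, and no stages overlapped. The antisense gene *Gm13938* inside *Ttn* had at most 4 counts in any library.

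The myomesins parted from each other. *Myom1* (chr17:71002633-71126856), which encodes the M-band crosslinker myomesin-1, had 1.36 and 1.39 TPM in ESC, 1.32 and 2.05 TPM in MES, 16.4 and 26.9 TPM in CP and 11.2 and 17.5 TPM in CM. *Myom2* (chr8:15057653-15133541), the gene of myomesin-2 (M-protein), a protein of heart and fast skeletal muscle, had 0.772 and 0.777 TPM in ESC, 0.118 and 0.188 TPM in MES, 0.336 and 0.366 TPM in CP and 1.01 and 0.533 TPM in CM. *Myom2* thus never exceeded 1.01 TPM (44 counts), and its CM values lay on both sides of its ESC values.

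In MES against ESC, 4 members were called higher and 3 lower by edgeR's quasi-likelihood test, where a gene is called if it changes to above 2-fold or below 0.5-fold with an adjusted p under 0.05. Over all genes tested 19.4% were called higher and 16.0% lower, and the median log2 fold change was -0.12 over the members and 0.00 over all genes. The higher members were *Myh7*, *Myl3*, *Myl4* and *Myl7*, a heavy chain and 3 light chains. *Myh7* rose by 3.48 ± 0.43 on the log2 scale (standard error, adjusted p = 9.78e-05) and *Myl3* by 3.47 ± 0.67 (adjusted p = 0.00157). *Myl4* rose by 1.97 ± 0.31 (adjusted p = 0.000429) and *Myl7* by 2.63 ± 0.78 (adjusted p = 0.0153). The call of *Myl7* was lost without ESC replicate 1, ESC replicate 2 or MES replicate 2 (adjusted p = 0.0811, 0.0673 and 0.0713).

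The lower members were *Ttn*, *Myom2* and *Myl2*. *Ttn* was 35.4-fold lower in MES than in ESC (log2 fold change -5.15 ± 0.35, adjusted p = 1.74e-06), and *Myom2* was 5.77-fold lower (-2.53 ± 0.48, adjusted p = 0.0015). *Myl2* had 1 count over both MES libraries and 12 over both ESC libraries, a ratio of 11.5-fold with a counting interval of 1.70 to 490.0, and its call (adjusted p = 0.0389) was lost when any ESC or MES library was left out, with scaling by library totals (adjusted p = 0.0530) and with no filter (adjusted p = 0.0508). *Myh6* (-0.96 ± 0.92, adjusted p = 0.397), *Mybpc3* (-0.32 ± 0.77, adjusted p = 0.747) and *Myom1* (0.08 ± 0.31, adjusted p = 0.837) were not called.

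In CP against MES, 9 of the 10 members were called higher and 0 lower, against 10.8% of all genes called higher and 4.65% lower. The median log2 fold change was 4.33 over the members and 0.00 over all genes. At an unadjusted p under 0.05 the count of lower members was also 0, and DESeq2 called 0. The folds fell into a high and a low range. *Myh6* was 204-fold higher (7.67 ± 0.58, adjusted p = 2.62e-05), *Ttn* 108-fold (6.75 ± 0.37, adjusted p = 5.41e-06) and *Mybpc3* 103-fold (6.69 ± 0.46, adjusted p = 1.51e-05). *Myl2*, with 222 counts in CP and 1 in MES, was 213-fold higher with a counting interval of 37.8 to 8452. These 4 genes are the members with the lowest TPM in MES apart from *Myom2*.

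The members that had been called higher in MES changed by smaller factors, *Myh7* by 29.3-fold (4.87 ± 0.27, adjusted p = 5.93e-06), *Myl4* by 13.8-fold (3.79 ± 0.22, adjusted p = 6.44e-06), *Myl7* by 12.8-fold (3.68 ± 0.53, adjusted p = 0.000725) and *Myl3* by 12.4-fold (3.63 ± 0.37, adjusted p = 0.000111). *Myom1* was 11.5-fold higher (3.52 ± 0.28, adjusted p = 3.09e-05). *Myom2* was the member not called (1.03 ± 0.54, adjusted p = 0.169). Summed markers of other cells moved with this step. Those of blood came to 4676 and 4701 TPM in CP, against 245 and 416 TPM in MES (4 of 7 higher and 1 lower). The globin gene *Hbb-bh1* alone had 2768 and 2914 TPM in CP. *Tal1* of the same list fell from 51.0 and 52.1 TPM in MES to 27.2 and 27.2 TPM in CP. Markers of smooth muscle and fibroblasts summed to 8841 and 10213 TPM in CP, against 1368 and 1424 TPM in MES (8 of 12 higher). Their part in the result was not tested.

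**Figure D3:**
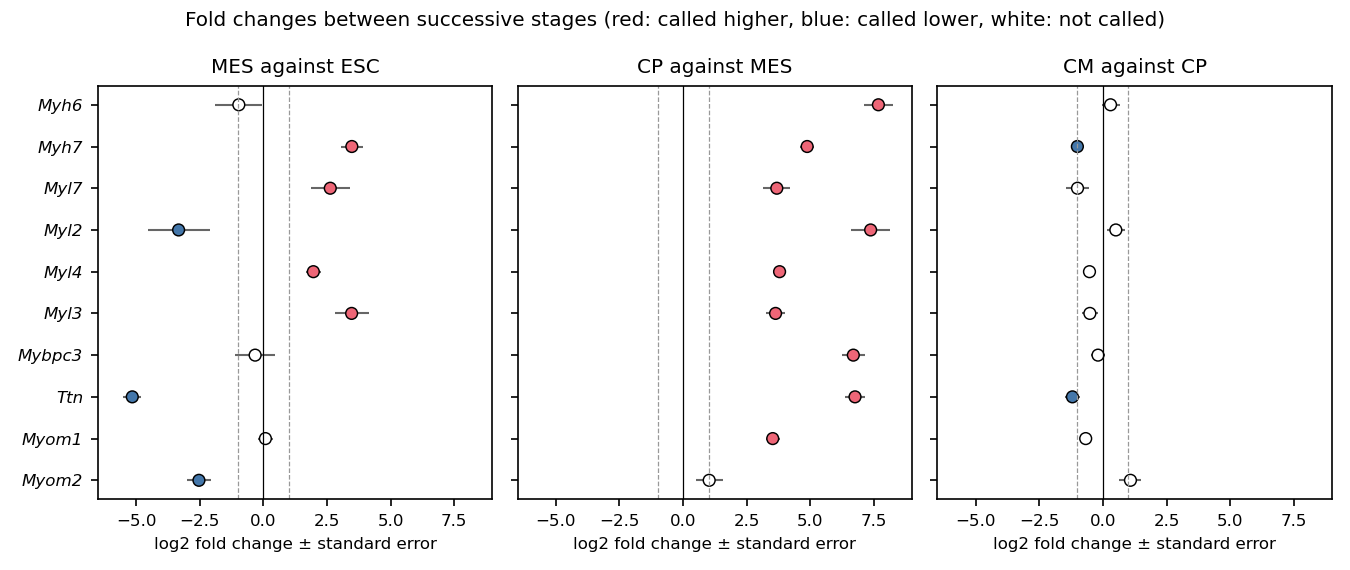
Log2 fold change of each member in MES against ESC, CP against MES and CM against CP, with the standard error as a bar, red for called higher, blue for called lower, white for not called and dashed lines at a fold of 2. In CP against MES 9 members are red, and in CM against CP the calls are *Myh7* and *Ttn*, both blue.

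In CM against CP, 0 members were called higher and 2 lower by edgeR, against 8.17% and 2.65% of all genes. The median log2 fold change was -0.52 over the members and -0.00 over all genes. At an unadjusted p under 0.05, 1 member was higher and 4 were lower, and DESeq2 also called 0 higher. *Myh7* was 2.00-fold lower in CM than in CP (-1.00 ± 0.22, adjusted p = 0.0102), and *Ttn* was 2.29-fold lower (-1.20 ± 0.29, adjusted p = 0.0146). Both calls were lost without CP replicate 2 (-0.58 and -1.01) or without CM replicate 1 (-0.86 and -0.81), and in a fit of CP and CM alone (adjusted p = 0.0596 and 0.0595), although both genes stayed lower. Markers of other cells moved with this step. Blood markers summed to 81.1 and 85.5 TPM in CM, against 4676 and 4701 TPM in CP (6 of 7 lower and 1 higher), and endothelial markers to 228 and 160.1 TPM in CM, against 436 and 453 TPM in CP (4 of 6 lower). Endoderm markers summed to 571 and 895 TPM in CM, against 314 and 518 TPM in CP (3 of 6 higher). *Alb* of that list passed the filter on low counts only through CM (59 and 116 counts), which set its direction. Smooth muscle and fibroblast markers summed to 16604 and 10605 TPM in CM, against 8841 and 10213 TPM in CP (4 of 12 higher and 3 lower). Their part in the result was not tested.

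The other members did not pass the test between CP and CM. *Myh6* had a log2 fold change of 0.30 ± 0.35 (adjusted p = 0.586), *Myl2* of 0.51 ± 0.36 (adjusted p = 0.348), *Mybpc3* of -0.19 ± 0.28 (adjusted p = 0.666) and *Myl3* of -0.51 ± 0.31 (adjusted p = 0.262). *Myl4* was at -0.53 ± 0.18 (adjusted p = 0.0610), *Myom1* at -0.68 ± 0.24 (adjusted p = 0.0638), *Myl7* at -1.00 ± 0.46 (adjusted p = 0.143) and *Myom2* at 1.08 ± 0.43 (adjusted p = 0.0996). The signs for *Myh6* and *Myl2* depended on CM replicate 2, since without it the values were -0.57 and -0.15. Without the same library *Myl7* was called lower (-2.23, adjusted p = 3.08e-05) and *Myom2* higher (1.52, adjusted p = 0.0123).

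In CM against ESC, the ends of the course, 8 members were called higher and 0 lower, against 29.8% and 21.8% of all genes, with a median log2 fold change of 5.27 over the members and 0.11 over all genes. At an unadjusted p under 0.05, 0 members were lower, and DESeq2 called 0. The heavy chains had the largest estimated folds, *Myh7* with 163-fold (7.35 ± 0.37, adjusted p = 1.23e-07) and *Myh6* with 129-fold (7.01 ± 0.54, adjusted p = 1.90e-06). *Myl3* was 96.4-fold, *Mybpc3* 72.2-fold, *Myl7* 39.8-fold, *Myl4* 37.5-fold, *Myl2* 23.4-fold and *Myom1* 7.61-fold higher in CM than in ESC. Most of these folds rest on few ESC counts, so their sizes and order are uncertain. In ESC, *Myl3* had 4 and 2 counts, *Myl2* 5 and 7, *Mybpc3* 7 and 14, *Myh7* 15 and 12 and *Myl7* 14 and 16. *Ttn* (0.41 ± 0.29, adjusted p = 0.219) and *Myom2* (-0.42 ± 0.39, adjusted p = 0.352) were not called. Both had been called lower in MES than in ESC.

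The CM replicates differed in thick filament RNA. CM replicate 2 exceeded CM replicate 1 in 9 of 10 members, and the ratio of replicate 2 to replicate 1 was 4.13 for *Myl7*, 2.98 for *Myh6*, 2.42 for *Myl2*, 2.16 for *Mybpc3* and 2.16 for *Ttn* by TPM. *Myl7* and *Myh6* were the members that differed most. The ratio was 1.84 for *Myl3*, 1.56 for *Myom1*, 1.42 for *Myh7* and 1.24 for *Myl4*, and *Myom2* went the other way at 0.530. On the scale of TMM-scaled CPM, where the 5th and 95th percentiles of all genes tested were ratios of 0.613 and 1.69, *Myl7* stood at percentile 99.7 and *Myh6* at percentile 99.1 of all genes. The isoforms of a pair were not alike here, as *Myh6* was at percentile 99.1 and *Myh7* at percentile 82.3. The atrial form was not the higher one in every pair. *Myl4* was at percentile 69.0 and its ventricular counterpart *Myl3* at percentile 94.0, while *Myl2*, the counterpart of *Myl7*, was at percentile 97.7.

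In CP, replicate 2 exceeded replicate 1 in 10 of 10 members, by ratios of 1.09 to 1.77. The labels do not say whether CP and CM libraries of the same replicate number belong together, and this was not settled here. In CM other genes moved with the difference between the replicates. The summed TPM of the 10 cardiomyocyte markers was 1072 in replicate 2 of CM, against 670 in replicate 1, with 8 of 10 higher in replicate 2. That of the 12 smooth muscle and fibroblast markers was 10605 and 16604, with 5 of 12 higher in replicate 2. The collagen gene *Col1a1* alone had 4539 TPM in replicate 2, against 8155 TPM in replicate 1. *Tagln*, *Cnn1* and *Myocd* of the same list were each higher in replicate 2 by TPM and by TMM-scaled CPM, so this list had no common direction. *Acta2* and *Pdgfra* were higher by TPM only, with log2 ratios of -0.099 and -0.17 by TMM-scaled CPM. The scales are offset in CM, as *Ryr2* had a TPM ratio of 1.13 and a log2 ratio of 0.006 by TMM-scaled CPM. Counts of genes higher by TPM here thus lean towards replicate 2. The 6 neural markers summed to 106 TPM in replicate 2, against 54.1 TPM in replicate 1 (6 of 6 higher in replicate 2), the 6 endoderm markers to 895 and 571 TPM (5 of 6 higher) and the 6 endothelial markers to 160.1 and 228 TPM (3 of 6 higher). Lists of other cell types thus moved in both directions. The 6 atrial markers summed to 70.8 TPM in replicate 2, against 53.6 TPM in replicate 1, with 4 of 6 higher in replicate 2. The 6 ventricular markers summed to 198 and 258 TPM, with 3 of 6 higher. *Hand1* made up most of that sum, at 143 TPM in replicate 2, against 217 TPM in replicate 1, and the other 5 markers summed to 55.5 TPM in replicate 2, against 40.5 TPM in replicate 1. The part of these cells in the difference between the CM libraries was not tested.

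**Figure D4:**
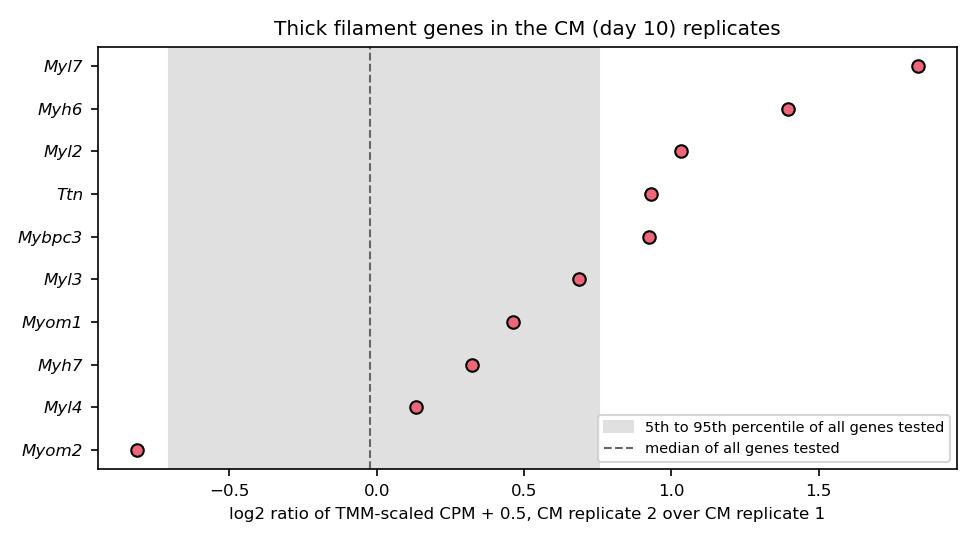
Log2 ratio of CM replicate 2 over CM replicate 1 for each member, on TMM-scaled CPM with 0.5 added, with a grey band from the 5th to the 95th percentile of all genes tested and a dashed line at their median. *Myl7* (1.84), *Myh6* (1.40), *Myl2*, *Ttn* and *Mybpc3* lie above the band and *Myom2* (-0.81) lies below it.

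The start regions of members that stepped up together are shown with the motifs of cardiac transcription factors found in them. RefSeq's promoter table of GRCm38.p6 gives 250 bases before to 50 after a start, and 8 of the 10 members matched an entry whose start was within 100 bases of that of the principal transcript, or, for *Ttn* and *Myl4*, of the gene's 5′ end. No such entry was matched for *Myl2* and *Myom2*. *Myh7* had 2 such entries, and a member is counted if either holds a match. The 5 printed belong to the heavy chains, the most abundant light chain and the members with a MEF2 match, and lie at chr14:54966558-54966857 (*Myh6*), chr14:54994577-54994876 (*Myh7*), chr11:5898733-5899032 (*Myl7*), chr2:91117894-91118193 (*Mybpc3*) and chr2:76982498-76982797 (*Ttn*), all on the minus strand except that of *Mybpc3*. Capitals mark motif matches on either strand.
Myh6: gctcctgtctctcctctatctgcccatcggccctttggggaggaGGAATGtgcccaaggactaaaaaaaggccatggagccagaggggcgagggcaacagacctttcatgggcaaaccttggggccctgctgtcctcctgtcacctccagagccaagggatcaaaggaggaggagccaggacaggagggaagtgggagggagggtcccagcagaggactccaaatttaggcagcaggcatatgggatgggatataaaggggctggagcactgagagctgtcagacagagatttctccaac
Myh7: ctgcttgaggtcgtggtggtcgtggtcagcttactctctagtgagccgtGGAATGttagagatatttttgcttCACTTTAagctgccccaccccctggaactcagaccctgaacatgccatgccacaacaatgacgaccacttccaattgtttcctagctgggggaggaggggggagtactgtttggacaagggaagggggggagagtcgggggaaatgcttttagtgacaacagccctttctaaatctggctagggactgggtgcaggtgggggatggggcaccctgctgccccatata
Myl7: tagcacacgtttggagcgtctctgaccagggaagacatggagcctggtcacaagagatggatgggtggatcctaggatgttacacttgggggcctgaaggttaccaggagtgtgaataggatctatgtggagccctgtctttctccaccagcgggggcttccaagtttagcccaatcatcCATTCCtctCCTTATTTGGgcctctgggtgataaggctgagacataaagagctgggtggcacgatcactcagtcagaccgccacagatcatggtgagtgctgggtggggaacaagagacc
Mybpc3: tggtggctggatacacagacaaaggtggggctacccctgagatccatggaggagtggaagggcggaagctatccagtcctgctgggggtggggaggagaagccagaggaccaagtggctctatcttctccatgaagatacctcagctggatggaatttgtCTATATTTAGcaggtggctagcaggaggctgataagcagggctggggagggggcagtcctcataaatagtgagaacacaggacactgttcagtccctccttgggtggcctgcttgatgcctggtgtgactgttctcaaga
Ttn: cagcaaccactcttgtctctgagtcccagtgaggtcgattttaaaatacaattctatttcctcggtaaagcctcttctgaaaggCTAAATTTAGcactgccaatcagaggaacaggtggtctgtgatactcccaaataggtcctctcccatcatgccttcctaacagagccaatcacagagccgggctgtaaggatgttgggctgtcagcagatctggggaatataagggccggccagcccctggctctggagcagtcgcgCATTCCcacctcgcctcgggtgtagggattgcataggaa
The motifs searched, on both strands, were those of MEF2, of serum response factor (the CArG box), of TEAD factors (CATTCC), of GATA factors (AGATAA), of Nkx2-5 (TNAAGTG) and of T-box factors (AGGTGT). No match of a motif overlapped that of another in these members. A MEF2 match was present in 2 of the 8 members, *Mybpc3* and *Ttn*, and in 1.86% of the 32841 promoters of the table. A CArG box was present in 3, *Myl3*, *Myl7* and *Myom1*, and in 1.63% of all promoters. CATTCC was present in 5, *Myh6*, *Myh7*, *Myl3*, *Myl7* and *Ttn*, and in 14.7% of all promoters. AGATAA was found in *Myom1* alone (11.2% of all promoters), TNAAGTG in *Myh7* alone (11.5%) and AGGTGT in 0 of the 8 (13.7%). Both matches of *Myh7* lie in the window printed, and its second window, whose start is 77 bases downstream, held none of these motifs. These matches describe the letters of the windows and do not show binding.

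Other genes of the thick filament apparatus were taken from lists. Of 8 other sarcomeric myosin heavy chains, 3 were expressed enough to be tested, and all 3 were called lower in MES than in ESC. The share called lower over all genes tested was 16.0%. *Myh3* (66 and 69 counts in ESC) and *Myh13* (37 and 41) had 0 to 8 counts in every other library. These 2 genes passed the filter on low counts only through ESC, so their direction was set by the filter. *Myh3*, the embryonic skeletal heavy chain, had 0 counts in MES and 135 in ESC, so it was at least 43.0-fold lower in MES. *Myh13*, the heavy chain of extraocular muscle, had 2 counts in MES and 78 in ESC, a ratio of 37.3-fold lower with a counting interval of 9.97 to 313. *Myh7b* was lower in MES than in ESC (-1.85 ± 0.44, adjusted p = 0.005) and higher in CP than in MES (2.37 ± 0.43, adjusted p = 0.00229). Like *Ttn*, *Myh7b* had more RNA in ESC than in MES.

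Of 7 other myosin light chains tested, 2 were called higher and 1 lower in MES against ESC, which is close to the 19.4% and 16.0% of all genes. The gene lower in MES was *Mylpf*, the fast skeletal regulatory light chain, with 2.37 and 3.73 TPM in MES, against 110 and 104 TPM in ESC (-5.34 ± 0.23, adjusted p = 1.13e-07). *Mylpf* stayed between 2.54 and 2.80 TPM in CP and CM and was not called in CP against MES, where *Ttn* was called higher. *Myl9*, the regulatory light chain of smooth muscle and nonmuscle cells, was higher in MES than in ESC (1.97 ± 0.16, adjusted p = 5.49e-06) and higher in CM than in CP (1.07 ± 0.13, adjusted p = 0.000599). Of 6 other myosin-binding and M-band genes tested, 4 were lower in MES against ESC, among them *Mybpc1*, *Mybpc2* and *Myom3*. *Mybpc2* passed the filter on low counts only through ESC (58 and 54 counts). In CP against MES 4 of the 6 were higher, against 10.8% of all genes. Among them were *Mybphl* (2.57 ± 0.59, adjusted p = 0.00771), *Mybpc1* and *Myom3*. *Mybpc1* and *Mybpc2* encode the slow and fast skeletal forms of myosin-binding protein C.

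Genes that fold myosin or phosphorylate it followed the members in part. Over all genes tested, 10.8% were called higher in CP than in MES, and 2.65% lower in CM than in CP. Of 4 thick filament chaperone genes, 2 were higher in CP than in MES, *Smyd1* (4.41 ± 0.51, adjusted p = 0.000219) and *Unc45b* (2.32 ± 0.46, adjusted p = 0.00366), which act together with Hsp90 in myosin folding in striated muscle. *Smyd1* was lower in CM than in CP (-1.55 ± 0.41, adjusted p = 0.0231). *Smyd1* reached 17.2 TPM in CM replicate 2, against 5.78 TPM in replicate 1, and *Unc45b* reached 18.9 TPM, against 5.76 TPM. Both thus differed between the CM libraries in the direction of *Myh6*. Of 5 tested genes of myosin light chain kinases and phosphatase subunits, 2 were higher in CP than in MES, the cardiac kinase *Mylk3* (4.27 ± 0.36, adjusted p = 4.15e-05) and the smooth muscle kinase *Mylk* (2.43 ± 0.21, adjusted p = 4.65e-05). *Mylk* was also higher in CM than in CP (1.75 ± 0.18, adjusted p = 0.000224), whereas *Mylk3* was not called there (-0.54 ± 0.28, adjusted p = 0.188).

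Of 7 tested genes whose proteins bind titin, 4 were higher in CP than in MES and 0 lower, against 10.8% and 4.65% of all genes. *Trim55*, a ring-finger protein of the M-band, had 508 counts in CP and 3 in MES, a ratio of 162-fold with a counting interval of 55.3 to 791. *Ankrd1*, a stress-responsive protein of the titin I-band, was higher by 2.68 ± 0.27 on the log2 scale (adjusted p = 9.66e-05), and *Trim63* by 2.21 ± 0.23 (adjusted p = 0.000111). *Trim63* shared with *Ttn* the fall in MES against ESC (-2.87 ± 0.23, adjusted p = 4.38e-06). Of 4 nonmuscle and smooth muscle heavy chains, 2 were higher in MES than in ESC, *Myh10* (1.95 ± 0.12, adjusted p = 7.54e-07) and *Myh9* (1.27 ± 0.11, adjusted p = 1.13e-05), and 0 were called in CP against MES. The share called higher in MES than in ESC over all genes was 19.4%. At 315 and 345 TPM in CM, *Myh9* was above *Myh6* (66.7 and 198.7 TPM) in both CM libraries.

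Across the 8 libraries, the members did not share a single profile. The correlation of a member's log2 CPM with the members' mean standardised profile was 0.996 for *Myh6*, 0.994 for *Mybpc3*, 0.991 for *Myom1* and 0.975 for *Myl2*. It was 0.932 for *Myl4*, 0.905 for *Myh7*, 0.893 for *Myl3*, 0.882 for *Myl7*, 0.738 for *Ttn* and 0.142 for *Myom2*. These values are descriptions over 8 libraries of 1 time course, and each member is part of the mean. The 10 genes outside the members most like the mean profile had correlations of 0.988 to 0.997, and included *Xirp1*, *Sorbs2*, *Pigk*, *6430548M08Rik*, *Cxcl12*, *Ldb3*, *Trim55*, *Slc24a2* and *Nepn*. *Xirp1*, *Ldb3* and *Trim55* encode proteins of the striated muscle sarcomere or its junctions, while *Pigk*, a subunit of the enzyme that attaches GPI anchors, had 12.2 to 29.5 TPM at all stages, so likeness of profile is not likeness of size.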

How the data were processed

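RNA of J1 mouse cells at 4 stages was sequenced as 8 ribosomal RNA-depleted, strand-specific libraries. According to the submitters' processing notes and the study's methods, the authors trimmed reads with Trim Galore 0.6.6, aligned them to GRCm38 with HISAT2 2.2.1 and counted fragments per gene by strand with featureCounts 2.0.1. The authors deposited raw counts per gene, and TPM computed from these counts and the summed length of all annotated exons, so genes with long rare exons have understated TPM. The authors' own comparisons used DESeq2 1.34.0. The members and lists were chosen with earlier results of these data known.

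Counts were tested with edgeR 4.0.16 (R 4.3.3), by the quasi-likelihood F-test with TMM scaling, after genes with few counts were removed by filterByExpr with the stages as groups. The 8 libraries shared 1 model with a term per stage, and the Benjamini-Hochberg adjustment covered 20071 genes. Calls needed an adjusted p under 0.05 together with a fold above 2 or under 0.5. The standard error was derived from the test, as the absolute log2 fold change over the root of F. As the CM replicates differed more than others and the spread is shared, p-values with CM can be too small. The script was tested on simulated counts. Against a stage with 0 counts a fold is a lower bound with a floor of 3 counts over both libraries, and against 1 to 3 counts it is the ratio of library-scaled counts with an exact 95% interval. Sequences came from RefSeq (GRCm38.p6) and GENCODE M21, with Biopython 1.88, pandas 2.3.3, scipy 1.17.1, Python 3.11.15 and matplotlib 3.10.9. Named genes are all members, the 2 to 4 called genes of each list with the smallest adjusted p, and the 10 genes outside the members with the highest correlation to their mean profile at an average log2 CPM of at least 2. Alternatives were DESeq2 1.42.0, other scaling, no filter, fits of only the 2 stages compared, a replicate block, leaving out each library, and shares by raw counts or pooled TPM. Of the genes this rule selects, 2 are not reported here.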

Additional observations from a re-analysis of the deposited data

How the results depend on the processing

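Of the values of single members under the alternatives, 530 kept their side of the threshold and either kept their direction or moved by at most 1 standard error. A further 17 lost a call, 4 gained a call and 7 changed sign beyond that limit. The count of members called lower in CM against CP (2) was 1 with scaling by library totals only (*Ttn*), 0 in the fit of only the 2 stages, 0 to 3 when a library was left out, and 2 with the replicate block (*Myl7* and *Ttn*). The count called higher there (0) ranged from 0 to 1 when a library was left out, as did the count called lower in CM against ESC (0). The cause was not tested.

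The sign changes counted above came only from leaving out a library. *Myom1* in MES against ESC ranged from -0.23, without MES replicate 2, to 0.34. In CM against CP, *Mybpc3* ranged from -0.74 to 0.19, and was positive without CP replicate 2 (0.09) or CM replicate 1. *Myh6* (-0.57 to 0.83) and *Myl2* (-0.15 to 0.94) turned negative without CM replicate 2. In CM against ESC, *Ttn* (-0.13 to 0.80) and *Myom2* (-1.07 to 0.025) turned without CM replicate 2. The mean share of *Myl7* in CM was 78.4% by raw counts and 80.3% with principal transcript lengths, and that of *Myl4* was 69.8% and 70.6%.

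Replicate numbers were checked for pairing by the correlation of replicate differences between stages. It ran from 0.0025 to 0.132, with the highest value between CP and CM. A low correlation over all genes cannot settle whether libraries of the same number form a series, and the main fit did not pair them. With the replicate block, *Myh7* in CM against CP was at -0.97 (adjusted p = 0.000731), which is under a fold of 2, and *Myl7* was called lower (-1.17, adjusted p = 0.0133). Over all genes, the 1640 called higher in CM against CP were 921 without CP replicate 1 and 1057 without CP replicate 2, and the 532 called lower were 355 and 798 without CP replicate 1 and without CM replicate 2. The 934 called lower in CP against MES were 609 without CP replicate 2. Scaling by library totals put the median over all genes of the log2 fold change in CM against ESC at 0.33, and TMM at 0.11. The fit of only the 2 stages in MES against ESC gave no value for *Myl2* and *Mybpc3*, which did not pass its filter. Depth limited *Myl2* in ESC and MES, *Myl3* in ESC, *Mybpc3* in ESC and MES and *Myom2* in MES, where libraries held 0 to 14 counts.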

Other observations

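Skeletal muscle markers had no common direction in MES against ESC, where 19.4% of all genes were called higher and 16.0% lower. Of 5 tested, 3 were called higher in MES, *Tnnt3* and *Tnni2*, fast skeletal troponins, and *Pax7*, a muscle stem cell regulator, each with 0 to 3 counts over both ESC libraries. *Tnni2* was near the floor in MES too, with 2 and 5 counts, and was at least 2.44-fold higher there (adjusted p = 0.0347 by edgeR). *Pax7* passed the filter on low counts only through MES (14 and 16 counts). The other 2 were called lower in MES, *Ryr1*, the calcium release channel of skeletal muscle, and *Actn3*, the fast-fibre actinin. *Capn3*, a protease that binds titin in skeletal muscle, had 0 counts in MES and 90 in ESC, so it was at least 28.7-fold lower in MES. It passed the filter only through ESC, which set that direction. Chamber markers were mixed between CM and CP. Of 5 atrial markers tested, 2 were called higher in CM than in CP and 0 lower, and of 6 ventricular markers 1 was called higher and 2 lower. Of all genes, 8.17% were called higher and 2.65% lower there. The atrial marker *Nppa* passed the filter on low counts only through CM (30 and 22 counts), so its direction was set by the filter. *Nppa*, the atrial natriuretic peptide gene, had 7.02 and 5.71 TPM in CM, against 0.245 and 1.25 TPM in CP. *Hand1*, a regulator of the left ventricle, had 217 and 143 TPM in CM, against 521 and 410.3 TPM in CP. It was highest in MES (613 and 544 TPM). Some others of these lists did not follow them. The ventricular marker *Irx4* had 7.22 and 3.70 TPM in CM, against 1.95 and 2.16 TPM in CP. The atrial marker *Tbx5* had 3.16 and 6.97 TPM in CM, against 6.31 and 5.32 TPM in CP. *Nkx2-5*, an early cardiac transcription factor gene, had 14.8 TPM in replicate 2 of CM, against 2.24 TPM in replicate 1, the same direction as *Myl7* and *Myh6*.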
